A study of Mus musculus with 4 samples.

Results

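Chemokines are small secreted proteins that guide leukocytes through tissue, and their receptors are membrane proteins coupled to inhibitory G proteins. The ligands are named for the spacing of their first cysteines, as CC, CXC, CX3C or C, and a few atypical receptors bind ligands without signalling through G proteins and mainly remove them. In the pubertal mammary gland, macrophages and eosinophils gather around the growing ducts, and chemokines such as Ccl11 take part in drawing them there. The levels described here are those of 52 genes of this family, 33 ligands and 19 receptors, out of 22180 genes measured. They were taken by symbol, as the numbered Ccl, Cxcl, Ccr and Cxcr genes together with Cx3cl1, Cx3cr1, Xcl1, Xcr1 and Ackr1 to Ackr4, from probe sets annotated to a single gene. The rule leaves out Cxcl13, Ccl19, Ccr7 and Cxcr2.

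Mammary epithelial cells were taken at 4 weeks of age from congenic FVB/NJ mice. The transgenic group, 2 samples, carried MMTV-Cre, which expresses Cre recombinase from the promoter of mouse mammary tumour virus, which is active mainly in mammary epithelium and also in some other tissues, and the comparison group, also 2 samples, was made up of wild-type littermates. The labels name no floxed allele in either group. Inguinal glands, which the labels call lymph node-free, were digested with collagenase and spun to remove stroma, and 50 ng of total RNA was labelled per array. Each group is described as biological replicates, with no statement of how many animals gave a sample. Where samples were not from separate animals, the p-values measure only the spread between these samples.

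All 12 epithelial markers looked at, among them Epcam, Krt8 and Krt18, lay above the level limit in every array. The limit is 2.84 on the log2 scale, the median over all probe sets. Markers of other cells were also present, with 10 of 10 fibroblast genes, 8 of 8 endothelial genes and 7 of 12 measured macrophage and dendritic cell genes at or above the limit as means over the 4 arrays. Wild-type replicate 1 stood apart. It held 63 genes at least 1 log2 unit above the 3 other arrays, against 1, 2 and 1 such genes in MMTV-Cre replicate 1, MMTV-Cre replicate 2 and wild-type replicate 2. The 9 genes of a T and NK cell list above the limit averaged 1.72 above their gene means in that array, and the other 3 arrays ranged from −0.67 to −0.51, although the cytotoxic genes Nkg7 and Gzma of that list hardly differed between arrays. The T cell receptor complex gene Cd3g stood at 6.63 there and between 2.51 and 2.71 elsewhere. Cd3d and Cd3g passed the limit only through wild-type replicate 1, which raises the mean of the list there. For Ccl5, Ccl8, Ccl22 and Xcl1 the difference without this array is given beside the full one. In RNA from a mixture of cells, a smaller number of cells of one type and less RNA per cell cannot be told apart.

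No chemokine or chemokine receptor gene differed between MMTV-Cre and wild-type by the limma test. Of the 52 genes, 35 had a mean at or above the limit over the 4 arrays and were tested, and 0 passed at an adjusted p under 0.05 (smallest 0.964 among them). Over all 11668 genes tested the share that passed was also 0%. At an unadjusted p under 0.05 there was 1 gene of the family, Cxcl15, beside 4.32% of all genes tested. Both MMTV-Cre arrays lay above both wild-type arrays in 4 genes, Ccl8, Ackr3, Cxcl15 and Cxcl12, and below both in 3, Ccl5, Cxcl17 and Ackr2. Over all genes tested these shares were 16.7% and 16.5%, and with 4 and 3 of 35 genes the family did not exceed them. Subtracting the wild-type from the MMTV-Cre mean gave a log2 difference above 0 in 19 of the 35 and below 0 in 16, with a median of 0.01 beside −0.00 over all genes tested. The median half-width of the 95% interval was 0.45 log2 units for these genes and 0.34 over all genes, so differences smaller than that were not resolved. The intervals are not adjusted for the number of genes, and larger differences, such as −0.99 for Ccl22, did not pass either. An exact permutation test of 2 against 2 arrays, two-sided, cannot give a p below 0.333.

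**Figure D1:**
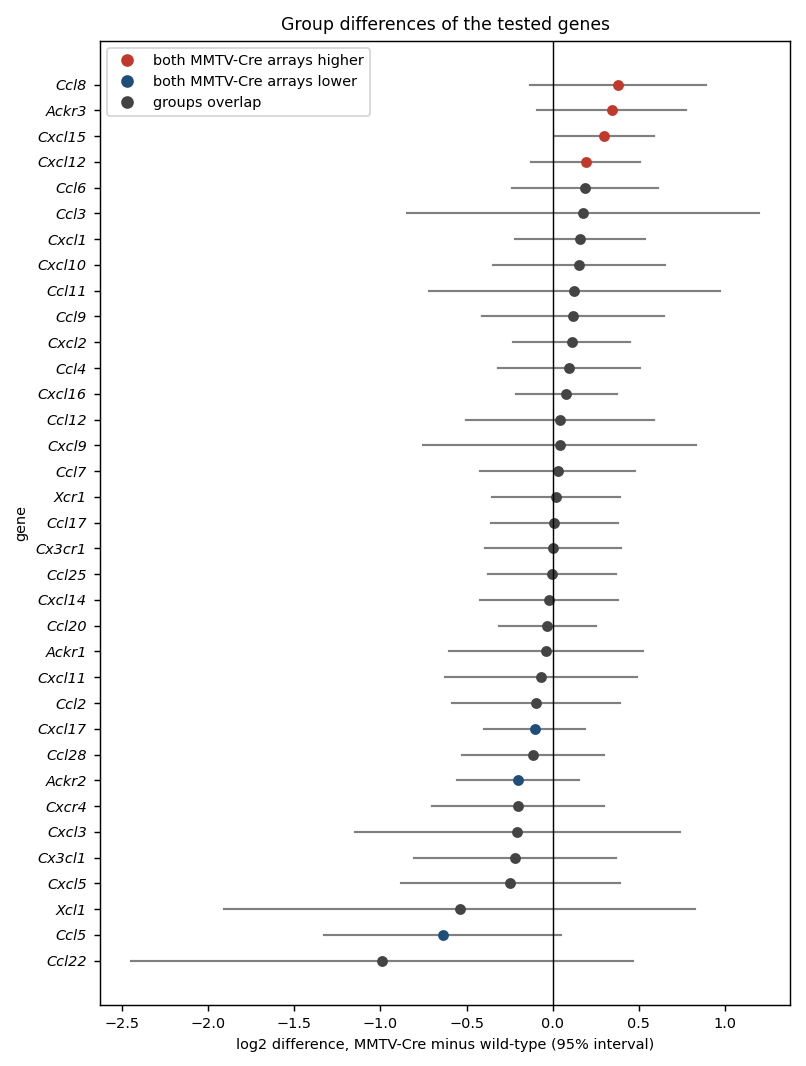
Log2 difference between the group means (MMTV-Cre minus wild-type, horizontal axis) for the 35 tested genes, with the limma 95% interval as a line. Red and blue points mark genes whose groups do not overlap, and every interval except that of Cxcl15 includes 0.

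Among the CC ligands of inflammation, which attract monocytes, eosinophils and T cells, 10 of 12 were tested and 8 of these had differences above 0. The monocyte attractant Ccl2 stood at 9.61 and 10.11 in MMTV-Cre against 9.98 and 9.92 in wild-type. Its neighbour Ccl7 stood at 8.29 and 8.74 in MMTV-Cre against 8.52 and 8.45 in wild-type. For both genes the MMTV-Cre arrays were the lowest and the highest of the 4, so the wild-type values fell between them, and the group differences were −0.10 (95% interval −0.58 to 0.39) and 0.03 (−0.42 to 0.48). Ccl11, the eosinophil attractant eotaxin, was at 6.05 and 7.0 in MMTV-Cre against 6.55 and 6.25 in wild-type, a difference of 0.13 (−0.72 to 0.97). Ccl3, which binds receptors of monocytes and T cells, showed the same arrangement, with 4.44 and 5.55 in MMTV-Cre and 5.08 and 4.56 in wild-type. In each of these genes the groups overlapped.

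Ccl8, another monocyte attractant, was the ligand with the highest difference, 0.38 (−0.13 to 0.89, adjusted p = 0.964 by limma). It stood at 5.87 and 6.04 in MMTV-Cre against 5.31 and 5.83 in wild-type. The groups did not overlap, but the low value of wild-type replicate 1 made up most of the difference, which was 0.12 without that array. Ccl6, a mouse CC ligand made by myeloid cells, stood at 3.46 and 3.87 in MMTV-Cre against 3.47 and 3.48 in wild-type, so MMTV-Cre replicate 2 alone was higher. Ccl5, a ligand made in quantity by activated T cells, was lower in both MMTV-Cre arrays, at 7.21 and 7.19 against 8.24 and 7.45 in wild-type. That difference of −0.64 (−1.33 to 0.05, adjusted p = 0.964) became −0.25 without wild-type replicate 1 and −1.03 without wild-type replicate 2. The other tested members of the group, Ccl4, Ccl9 and Ccl12, had differences between 0.04 and 0.12 and levels between 3.38 and 4.17. Ccl24 and Ccl26, ligands of the eosinophil receptor Ccr3, lay below the limit in all arrays, between 2.10 and 2.65.

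Ligands of tissues and of T cell attraction had 5 of 7 genes tested, and 4 of the 5 differences were below 0. Ccl22, a ligand of Ccr4 made by dendritic cells, had the widest spread, with 3.32 and 4.23 in MMTV-Cre and 5.53 and 4.00 in wild-type. Wild-type replicate 1 was 1.30 log2 units above the next array, MMTV-Cre replicate 1 was the lowest, and the other 2 arrays lay within 0.23 of each other. The difference of −0.99 (−2.45 to 0.46, adjusted p = 0.964) was −0.23 without wild-type replicate 1, −0.54 without MMTV-Cre replicate 1, −1.45 without MMTV-Cre replicate 2 and −1.76 without wild-type replicate 2. Ccl20, the ligand of Ccr6, varied little, between 4.42 and 4.53 over the 4 arrays. Ccl17, the other Ccr4 ligand, the gut ligand Ccl25 and the mucosal ligand Ccl28 had levels between 2.70 and 3.47 and differences from −0.12 to 0.01. Ccl1 and the skin ligand Ccl27a were below the limit in every array.

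**Figure D2:**
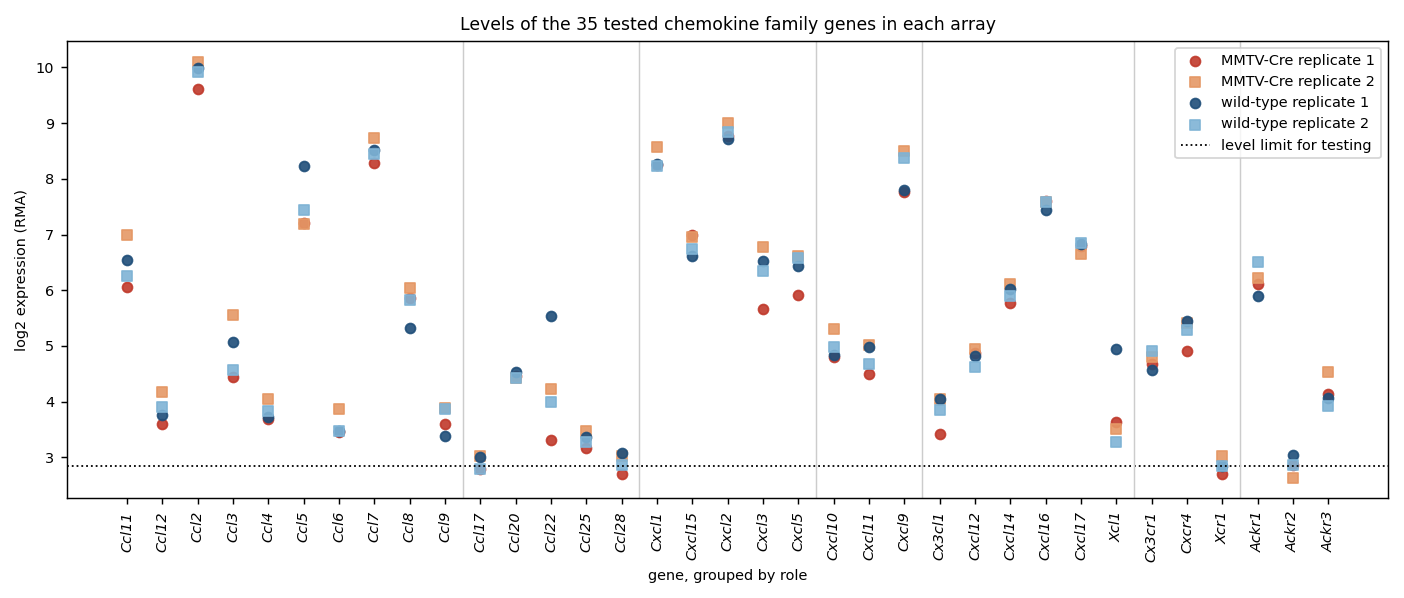
Log2 expression (vertical axis) of the 35 tested genes in each of the 4 arrays, grouped by role from left to right as CC ligands of inflammation, other CC ligands, CXC ligands of neutrophils, interferon-induced CXC ligands, other ligands, receptors and atypical receptors. Most genes differ between arrays by well under 1 log2 unit, and Ccl22 and Xcl1 stand out in wild-type replicate 1 at 5.53 and 4.94. Heights of different genes are not comparable, because probe sets differ in brightness.

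The CXC ligands that attract neutrophils lie side by side on chromosome 5, and all 5 were tested. The promoters of Cxcl1, Cxcl2, Cxcl3 and Cxcl15 are shown so that neighbours can be compared, with Cxcl10 of the interferon-induced group beside them. NF-kB is a transcription factor known to induce inflammatory chemokines, and its part in these arrays was not tested. Each window holds the 250 bases before and the 50 bases from the annotated start, from RefSeq on GRCm38.p6, read 5′ to 3′ on the gene's strand. Capitals mark matches to the NF-kB consensus, in Cxcl3 and Cxcl15 the TATA box TATAAA, and in Cxcl10 also the interferon element core GAAANNGAA. The windows are chr5:90890995-90891294 (plus strand) for Cxcl1, chr5:90903649-90903948 (plus strand) for Cxcl2, chr5:90785851-90786150 (plus strand) for Cxcl3, chr5:90794284-90794583 (plus strand) for Cxcl15 and chr5:92348840-92349139 (minus strand) for Cxcl10.
Cxcl1: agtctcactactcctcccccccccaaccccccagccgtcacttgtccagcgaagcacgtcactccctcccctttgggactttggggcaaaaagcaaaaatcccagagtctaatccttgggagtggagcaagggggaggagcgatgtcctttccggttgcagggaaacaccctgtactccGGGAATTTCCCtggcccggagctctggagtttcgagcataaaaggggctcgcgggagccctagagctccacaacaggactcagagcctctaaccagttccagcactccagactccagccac
Cxcl2: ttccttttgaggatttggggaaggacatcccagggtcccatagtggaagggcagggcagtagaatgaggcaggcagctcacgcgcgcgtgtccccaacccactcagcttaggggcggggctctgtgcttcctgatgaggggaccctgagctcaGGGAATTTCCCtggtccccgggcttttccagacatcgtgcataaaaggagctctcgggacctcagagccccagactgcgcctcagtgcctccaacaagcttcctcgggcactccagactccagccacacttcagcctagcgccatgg
Cxcl3: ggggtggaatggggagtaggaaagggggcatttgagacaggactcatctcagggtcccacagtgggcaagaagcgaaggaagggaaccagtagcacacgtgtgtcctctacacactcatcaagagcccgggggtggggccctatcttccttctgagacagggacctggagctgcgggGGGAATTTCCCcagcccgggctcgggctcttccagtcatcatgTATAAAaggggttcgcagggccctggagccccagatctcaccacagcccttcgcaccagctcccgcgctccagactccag
Cxcl15: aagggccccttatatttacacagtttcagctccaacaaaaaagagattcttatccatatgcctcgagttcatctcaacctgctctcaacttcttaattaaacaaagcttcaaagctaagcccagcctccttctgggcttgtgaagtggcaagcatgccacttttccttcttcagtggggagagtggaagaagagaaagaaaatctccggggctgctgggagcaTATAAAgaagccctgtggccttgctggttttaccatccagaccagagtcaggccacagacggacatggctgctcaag
Cxcl10: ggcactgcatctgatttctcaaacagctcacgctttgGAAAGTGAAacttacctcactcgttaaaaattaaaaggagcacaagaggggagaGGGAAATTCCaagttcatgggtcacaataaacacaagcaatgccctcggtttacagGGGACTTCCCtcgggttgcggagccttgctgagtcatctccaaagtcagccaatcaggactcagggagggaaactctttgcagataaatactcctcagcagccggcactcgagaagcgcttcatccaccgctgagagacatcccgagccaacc

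Counting the annotated start as 0, the NF-kB match begins at −71 in Cxcl1, at −97 in Cxcl2 and at −73 in Cxcl3, in each case on both strands. Cxcl3 also holds TATAAA at −30. The window of Cxcl15 holds no NF-kB match and has TATAAA at −27. Cxcl10 holds NF-kB matches at −159 and −103 and the interferon element at −213. Windows were found for 39 of the 52 genes. The NF-kB consensus, searched on both strands, matched in 6 of 22 ligand windows (27.3%) and 2 of 17 receptor windows (11.8%), beside 4.35% of 27025 windows of the same length over all genes. Besides those printed, the matches were in Ccl20, Ccl9, Ackr2 and Ccr3. TATAAA, searched on the gene's strand only, was present in 31.8% of ligand windows and 8.88% of all windows, and GAAANNGAA, searched on both strands, in 22.7% and 8.57%. No match of one motif overlapped a match of another in these 39 windows. These matches describe letters in the windows, and binding was not measured.

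Cxcl1 stood at 8.24 and 8.57 in MMTV-Cre against 8.26 and 8.24 in wild-type, a difference of 0.16 (−0.22 to 0.54). Cxcl2 was at 8.77 and 9.0 in MMTV-Cre against 8.72 and 8.84 in wild-type, a difference of 0.11 (−0.23 to 0.45). In both, MMTV-Cre replicate 2 was the highest array and the other 3 lay close together. Cxcl3 ranged more widely, with 5.67 and 6.78 in MMTV-Cre and 6.52 and 6.35 in wild-type, and Cxcl5 had 5.91 and 6.61 against 6.43 and 6.59. MMTV-Cre replicate 1 was the low array for both. Their differences, −0.20 (−1.15 to 0.74) and −0.25 (−0.88 to 0.39), turned to 0.35 and 0.10 without that array. Cxcl15, a CXC ligand known mainly from lung epithelium, was the member with the smallest p. It stood at 6.99 and 6.95 in MMTV-Cre against 6.61 and 6.74 in wild-type. The groups did not overlap, the difference was 0.30 (0.01 to 0.59, adjusted p = 0.964 by limma), and it stayed between 0.24 and 0.36 when any 1 array was left out. Of 12 neutrophil and mast cell markers, 5 were above the limit and all 5 had a difference below 0, with a median of −0.73 and 0 past the adjusted threshold in limma. The 3 at an unadjusted p under 0.05, beside 4.32% of all genes tested, were the mast cell proteases Cma1, Mcpt4 and Cpa3. The neutrophil genes S100a8 and S100a9 had differences of −0.09 and −0.74, which became 0.18 and 0.01 without wild-type replicate 1. Their part in these ligands was not tested.

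The 3 CXC ligands induced by interferon, which bind Cxcr3 on T and NK cells, are neighbours in a separate group on chromosome 5. Cxcl9 was at 7.76 and 8.49 in MMTV-Cre against 7.80 and 8.37 in wild-type, so each group had a low replicate 1 and a high replicate 2. Cxcl10 stood at 4.81 and 5.31 in MMTV-Cre against 4.84 and 4.98 in wild-type. Cxcl11 lay between 4.50 and 5.02. All 3 were lowest in MMTV-Cre replicate 1 and highest in MMTV-Cre replicate 2, and their group differences were 0.04 (−0.75 to 0.83), 0.15 (−0.35 to 0.65) and −0.06 (−0.62 to 0.49). Their receptor Cxcr3 lay below the limit in all 4 arrays, between 2.50 and 2.70.

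The remaining ligands include several that are made by epithelium or stroma without inflammation. Cxcl12, the stromal ligand of Cxcr4, was at 4.87 and 4.95 in MMTV-Cre against 4.81 and 4.62 in wild-type. The groups did not overlap, and the difference was 0.19 (−0.13 to 0.51, adjusted p = 0.964), with 0.095 without wild-type replicate 2. Cxcl14, expressed by many epithelia, stood at 5.77 and 6.11 in MMTV-Cre against 6.03 and 5.89 in wild-type, with overlapping groups. Cxcl16, a membrane-bound ligand of Cxcr6, was nearly level, at 7.60 and 7.58 in MMTV-Cre against 7.45 and 7.58 in wild-type, a difference of 0.08 (−0.21 to 0.37) that was 0.01 without wild-type replicate 1. Cxcl17, a mucosal ligand, was at 6.80 and 6.66 in MMTV-Cre against 6.83 and 6.84 in wild-type. Both MMTV-Cre values were lower, with a difference of −0.10 (−0.40 to 0.19) and −0.03 without MMTV-Cre replicate 2. Cx3cl1, the membrane-bound ligand of the macrophage receptor Cx3cr1, stood at 3.42 and 4.04 in MMTV-Cre against 4.05 and 3.85 in wild-type, with MMTV-Cre replicate 1 apart from the rest. Xcl1, made by activated T and NK cells, stood at 3.63 and 3.50 in MMTV-Cre against 4.94 and 3.27 in wild-type. Its difference of −0.54 (−1.91 to 0.83, adjusted p = 0.980) was 0.29 without wild-type replicate 1.

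Most receptors were dim. Of 8 CC receptors, 0 reached the limit, and Ccr1, Ccr2, Ccr3, Ccr4, Ccr6, Ccr8 and Ccr10 lay below it in every array, between 1.40 and 2.69. The gut homing receptor Ccr9 was above it in 2 arrays, with a highest value of 2.90. Cxcr1 and Cxcr5, on neutrophils and B cells, lay between 1.70 and 2.43. Cxcr6, a receptor of T and NK cells, exceeded the limit in wild-type replicate 1, with 3.49, and ranged from 2.29 to 2.69 in the other arrays. Cxcr4, the receptor of Cxcl12 on many cell types, stood at 4.91 and 5.41 in MMTV-Cre against 5.45 and 5.28 in wild-type. MMTV-Cre replicate 1 was the low array, and the difference of −0.20 (−0.70 to 0.30) was 0.05 without it. Cx3cr1 lay between 4.56 and 4.90 and Xcr1, a receptor of cross-presenting dendritic cells, between 2.70 and 3.02, with differences of 0.00 and 0.02. A dim probe set can reflect a low transcript level or a weak probe set, and these arrays do not separate them. The mean levels closest to the limit were those of Ackr2 (2.85) and Xcr1 (2.85) inside it and Cxcr6 (2.77) and Ccr9 (2.65) outside it.

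Of the 4 atypical receptors, 3 were tested. Ackr3, which takes up Cxcl12, was at 4.14 and 4.54 in MMTV-Cre against 4.06 and 3.93 in wild-type. The groups did not overlap, and the difference was 0.34 (−0.09 to 0.78, adjusted p = 0.964) with 0.14 without MMTV-Cre replicate 2 and 0.54 without MMTV-Cre replicate 1. Ackr2, which removes inflammatory CC ligands, stood at 2.85 and 2.64 in MMTV-Cre against 3.04 and 2.86 in wild-type, close to the limit, with a difference of −0.20 (−0.55 to 0.15). It was −0.11 without wild-type replicate 1, −0.09 without MMTV-Cre replicate 2 and −0.31 without MMTV-Cre replicate 1. Ackr1, carried by venular endothelium and red cells, was at 6.12 and 6.22 in MMTV-Cre against 5.91 and 6.51 in wild-type, so the wild-type arrays enclosed both MMTV-Cre values. Ackr4 lay below the limit in all arrays. Among the 17 genes below it, none of which was tested, the groups also did not overlap in Ackr4, Ccl24, Cxcr1 and Cxcr5 (MMTV-Cre higher) and in Ccr4 (lower). Over the 10512 genes below the limit these shares were 16.6% and 16.1%.

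The MMTV-Cre arrays lay farther apart than the group means in 21 of the 29 ligands tested (72.4%), beside 61.8% of all genes tested. MMTV-Cre replicate 2 was the highest array in 20 ligands (69.0%) and MMTV-Cre replicate 1 the lowest in 18 (62.1%), beside 27.6% and 30.2% of all genes tested. Both held together in 15 ligands (51.7%), beside 11.0% of all genes. The median of replicate 2 minus replicate 1 was 0.34 log2 units in MMTV-Cre and −0.06 in wild-type over the ligands, beside 0.02 and 0.04 over all genes tested. MMTV-Cre arrays were at least 0.5 log2 units apart in 11 of 29 ligands (37.9%), against 8.01% of all genes. Over the 6 receptors tested, MMTV-Cre replicate 2 was the highest in 2 and MMTV-Cre replicate 1 the lowest in 2. Replicate 2 was nevertheless above replicate 1 in 5 of these 6 (83.3%, median 0.22), and the MMTV-Cre arrays lay farther apart than the group means in 6 of 6, so receptors and ligands are not shown to differ here. These shares describe 4 arrays, and ligands of one array are not independent of each other.

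**Figure D3:**
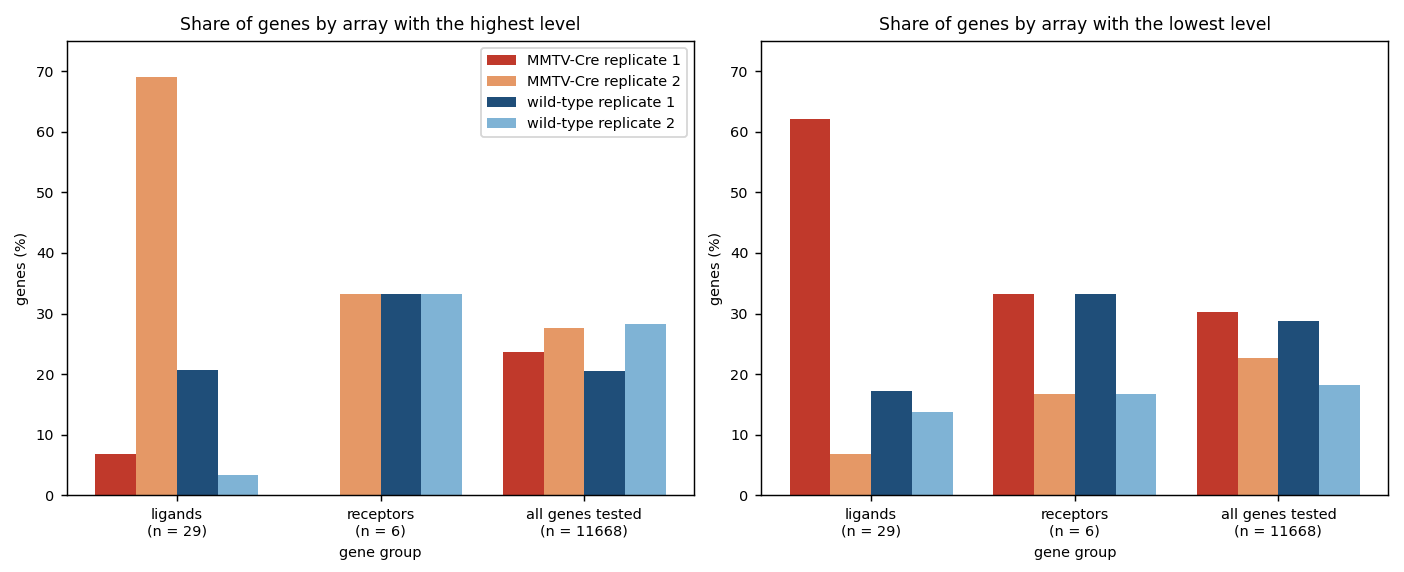
Share of genes (percent) for which each array held the highest level (left) or the lowest level (right), for the 29 ligands, the 6 receptors and all 11668 genes tested. MMTV-Cre replicate 2 was highest in 69.0% of ligands and MMTV-Cre replicate 1 lowest in 62.1%, beside 27.6% and 30.2% over all genes.

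The direction of the ligands against wild-type depended on which arrays were kept. Without MMTV-Cre replicate 1, 24 of 29 ligands had a difference above 0, with a median of 0.22. Without MMTV-Cre replicate 2, 25 of 29 ligands were below 0, with a median of −0.19. Both counts mostly restate the order of the arrays given above. A ligand highest in MMTV-Cre replicate 2 must lie above 0 without MMTV-Cre replicate 1. One lowest in MMTV-Cre replicate 1 must lie below 0 without MMTV-Cre replicate 2. With all arrays 16 were above and 13 below, with a median of 0.03. Without wild-type replicate 1 the count was 18 above and 11 below, with a median of 0.05, and without wild-type replicate 2 it was 12 above and 17 below, with a median of −0.06. The median over all genes tested stayed between −0.02 and 0.02 in these fits.

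**Figure D4:**
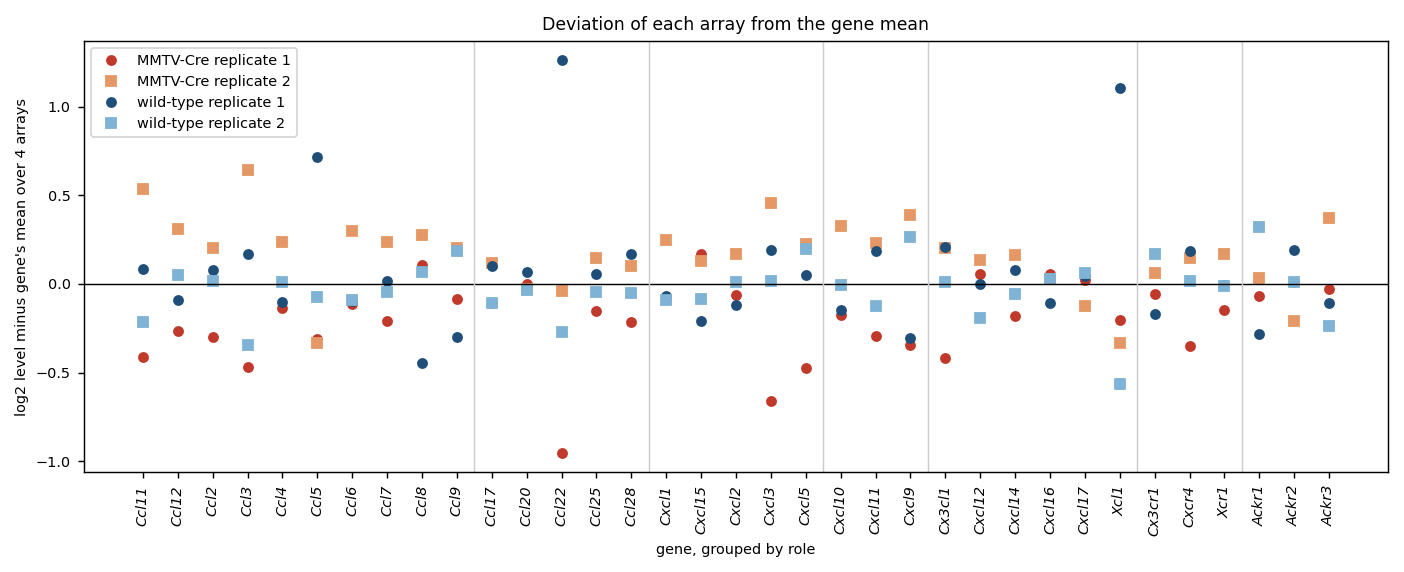
Log2 level of each array minus the gene's mean over the 4 arrays (vertical axis) for the 35 tested genes, grouped by role. MMTV-Cre replicate 2 lies above 0 and MMTV-Cre replicate 1 below 0 for most ligands, while Ccl5, Ccl22 and Xcl1 are high in wild-type replicate 1.

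The pattern ran through groups of neighbouring genes. Members were counted as neighbours when their starts lay within 1 Mb of the next. In the group Ccl2, Ccl7, Ccl11, Ccl12, Ccl8 and Ccl1 on chromosome 11, MMTV-Cre replicate 2 was the highest array in 5 of 5 genes tested, with replicate 2 minus replicate 1 from 0.17 to 0.95 and a median of 0.50. In the second group on that chromosome, Ccl5, Ccl9, Ccl6, Ccl3 and Ccl4, it was the highest in 4 of 5, with a median of 0.37, and Ccl5 was the exception at −0.02. Over Cxcl5, Cxcl3, Cxcl15, Cxcl1 and Cxcl2 on chromosome 5 it was again the highest in 4 of 5, with a median of 0.33, and here Cxcl15 was the exception at −0.04. Cxcl9, Cxcl10 and Cxcl11 differed by 0.51 to 0.73 between these arrays. Of Ccl22, Cx3cl1 and Ccl17 on chromosome 8, MMTV-Cre replicate 2 was the highest in 1 of 3 and MMTV-Cre replicate 1 the lowest in all 3, and the median difference between the MMTV-Cre arrays was 0.62.

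Marker lists of other cells also differed between the MMTV-Cre arrays. Over 7 macrophage and dendritic cell genes the mean deviation from the gene means was −0.32 in MMTV-Cre replicate 1 and 0.30 in MMTV-Cre replicate 2, against 0.08 and −0.05 in the wild-type arrays. The complement gene C1qb of tissue macrophages was measured at 3.56 and 4.82 in MMTV-Cre, with 3.84 in both wild-type arrays. Lyz1 of the same list hardly differed between the MMTV-Cre arrays, at 3.76 and 3.71, and Csf1r stood at 3.86 and 4.12 in them. Over 10 fibroblast genes the means were −0.17 and 0.39 in MMTV-Cre and −0.12 and −0.10 in wild-type. The fibroblast receptor Pdgfra stood at 4.34 and 5.92 in MMTV-Cre against 5.44 and 5.05 in wild-type. It was the 1 fibroblast gene of 10 with a group difference below 0. The other 9 had differences above 0, and the median over the list was 0.24, with 0 past the adjusted threshold in limma. Not every gene of the list differed between the MMTV-Cre arrays, and Col1a2 stood at 9.70 and 9.71 in them. Over 8 endothelial genes the means were −0.18 and 0.16 in MMTV-Cre and −0.22 and 0.24 in wild-type, and over 5 adipocyte genes −0.34 and 0.17 in MMTV-Cre and 0.06 and 0.11 in wild-type. The mean over the 12 epithelial genes stayed within −0.07 and 0.07 in all arrays. Single genes of that list varied more, and the basal keratin Krt14 was measured at 7.27 and 8.07 in MMTV-Cre against 8.02 and 7.97 in wild-type. The basal genes Krt17 and Trp63 were also lowest in MMTV-Cre replicate 1. The basal gene Acta2 went the other way, at 8.46 and 8.26 in MMTV-Cre against 8.04 and 7.87 in wild-type. Its difference was 0.40 (adjusted p = 0.964 by limma). Acta2 was the 1 gene of that list at an unadjusted p under 0.05 in limma, beside 4.32% of all genes tested. The part of these cells in the ligand pattern was not tested.

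Ccl5, Ccl22, Xcl1 and the dim Cxcr6 were highest in wild-type replicate 1, by 0.79, 1.30, 1.31 and 0.80 log2 units over the next array. Of the 35 tested members, 8 were highest there (22.9%), beside 20.5% of all genes tested. The tested members not yet named, Ccl20, Ccl28, Cx3cl1, Cxcr4 and Ackr2, were so by only 0.01 to 0.18. Ccl22 and Xcl1 were the 2 tested members among the 63 genes at least 1 log2 unit above the other arrays there. T cell genes were high in the same array, with Cd3d at 6.17, Cd3e at 6.0 and Il7r at 6.41, against at most 2.68, 3.26 and 3.54 in the others. Of the NK and cytotoxic genes, Nkg7 was 3.80 there against 3.60 to 3.72 and Gzma 3.68 against 3.16 to 3.56, and Klrb1c was lowest there, at 2.44. The 2 B cell genes above the limit, Cd79a and Cd79b, averaged 0.73 above their means in wild-type replicate 1 and between −0.33 and −0.19 elsewhere. Cd79a was above the limit only in that array and so passed through it, which raises this mean. The B cell genes below the limit, Ms4a1, Cd22, Pax5 and Blk, stood at 2.44, 2.40, 2.48 and 2.34 there. Their highest values elsewhere were 1.91, 2.20, 2.40 and 2.21. The 5 neutrophil and mast cell genes averaged 0.50 above, beside −0.45, −0.13 and 0.08 in MMTV-Cre replicate 1, MMTV-Cre replicate 2 and wild-type replicate 2. Without that array the differences of Ccl5, Ccl22 and Xcl1 were −0.25, −0.23 and 0.29. The part of lymphocyte RNA in these 3 genes was not tested.

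**Figure D5:**
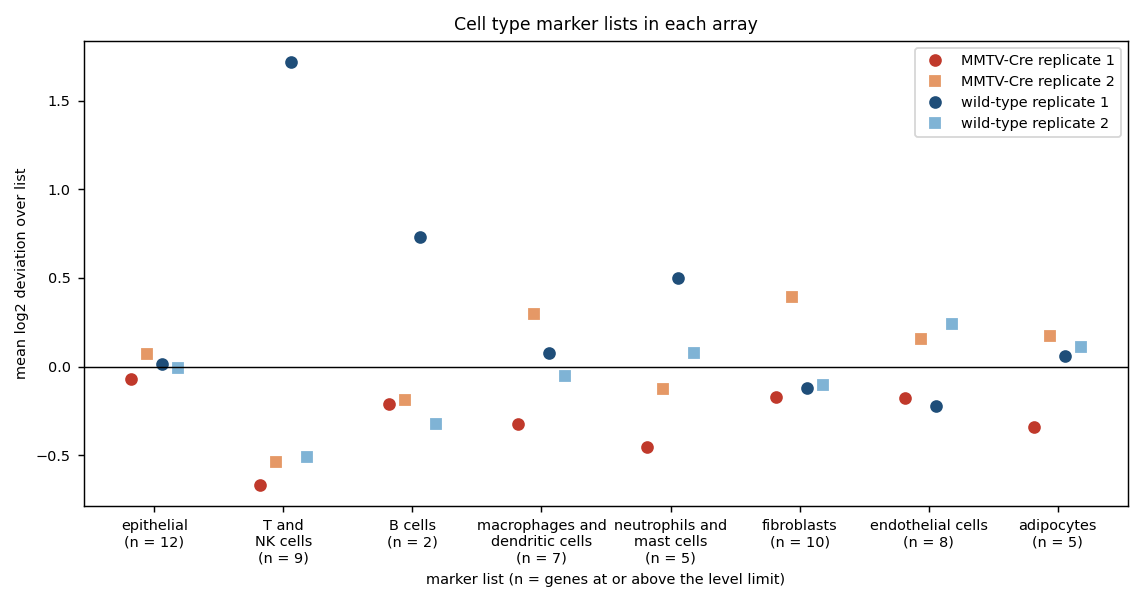
Mean deviation from the gene means (log2, vertical axis) over the measured genes at or above the level limit of 8 marker lists, in each array. T and NK cell genes stand at 1.72 in wild-type replicate 1, and macrophage, fibroblast and adipocyte genes are lower in MMTV-Cre replicate 1 than in MMTV-Cre replicate 2. Cd3d, Cd3g and the B cell gene Cd79a passed the limit only through wild-type replicate 1, which raises the means of their lists there.

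Signalling genes downstream of chemokine receptors showed no gene past the limma threshold. Of 23 tested genes, 8 had differences above 0 and 15 below, with a median of −0.10. An unadjusted p under 0.05 in limma was seen in 2 of the 23, beside 4.32% of all genes tested. Rac2, a small GTPase of blood cells that drives cell movement, stood at 2.31 and 2.96 in MMTV-Cre against 4.28 and 3.47 in wild-type, a difference of −1.24 (adjusted p = 0.964). Arrb2, a beta-arrestin that uncouples receptors, stood at 4.16 and 4.02 in MMTV-Cre against 4.85 and 4.35 in wild-type, a difference of −0.51. Both genes were lower in both MMTV-Cre arrays and highest in wild-type replicate 1, and without that array the differences were −0.83 and −0.26. Tiam1, an activator of Rac, was higher in both MMTV-Cre arrays by 0.24. Among G protein genes, Gnai2, Gnai3 and Gnb1 had differences of 0.09 to 0.14 (0.04 to 0.17 without wild-type replicate 1) with separate groups. For Gnb1 the separation was only 7.8699 in MMTV-Cre replicate 2 against 7.8691 in wild-type replicate 2. The unadjusted limma p of Gnai2, Gnai3 and Gnb1 ran from 0.265 to 0.472. Of the other tested genes of the list, Cdc42 and Ptk2b also had both MMTV-Cre arrays higher. Rhoa, Elmo1, Prex1 and Grk3 had both lower, like Rac2 and Arrb2. Both MMTV-Cre arrays lay higher in 16.7% and lower in 16.5% of all genes tested. Gnai1 and the untested Gng2 had overlapping groups, and the Gnai1 difference of 0.07 became −0.30 without wild-type replicate 1. The list averaged 0.22 above its gene means in wild-type replicate 1, and the other arrays ranged from −0.13 to −0.02. T cell transcripts were also high in wild-type replicate 1, and their part in this list was not tested. Vav1 of this list was above the limit only in that array, at 3.56 against 2.64 to 2.71 elsewhere. It passed the limit through that array, which raises the mean of the list there.

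Relatives and processing enzymes of chemokines had 8 genes tested, with 4 differences above 0, 4 below and 0 past the threshold. The genes with the smallest p were Dpp4, a peptidase that trims chemokines, with a difference of −0.43, Adam10, a protease that sheds Cx3cl1 and Cxcl16, with −0.07, and the chemerin-binding receptor Ccrl2 with −0.13. Without wild-type replicate 1 these differences were −0.04, −0.06 and 0.14. Pf4, a platelet CXC ligand outside the symbol rule, stood at 4.15 and 5.55 in MMTV-Cre against 5.01 and 4.84 in wild-type, with MMTV-Cre replicate 1 lowest and MMTV-Cre replicate 2 highest, as in 15 of the 29 ligands.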

How the data were processed

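Transcript levels were measured on 4 Affymetrix arrays, 1 per sample, 2 samples per group. The authors deposited log2 expression values per probe set, and oligo and RMA are named in the submitters' processing notes. As a rule, RMA subtracts background, gives the arrays a common distribution and combines probes, so a shift shared by most transcripts is not visible. For versions and the genome build: not given in the sources used here. The log2 scale was read from the values.

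Genes were named from the platform annotation. Of 41345 probe sets, 23521 carry 1 symbol, 1814 several and 16010 none here. Each gene is represented by its brightest probe set of 1 symbol. Genes with a mean of at least 2.84, which is the middle of all probe sets, entered the test with limma 3.58.1 in R 4.3.3 (lmFit, eBayes, two-sided, Benjamini-Hochberg adjustment over all 11668 genes at 0.05). The procedure was tested on simulated data.

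The members and gene lists were chosen with earlier results of these data known. Values in every array are given for members with separate groups, the 15 with the smallest p, those with a gap of 1 log2 unit above the next array, and those at least 2 log2 units above the limit. Of 2 pathway lists, up to 3 genes with the smallest p are named, and any other gene named was chosen after its values were seen. The replicate numbers only name samples, since the labels tie them to no shared litter or day. The alternatives tried covered the filter on dim genes, several probe sets per gene, normalization, the variance model, the replicate block, an unadjusted threshold and leaving out each array. Promoter sequences are from RefSeq, assembly GRCm38.p6.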

Additional observations from a re-analysis of the deposited data

How the results depend on the processing

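All alternatives were fixed before these fits were run, with earlier results of the data known. The family's count called by limma was 0 under each alternative that used an adjusted p, including the replicate block (0 genes of the family, 0 of all genes, median difference 0.01), and was 1 at an unadjusted p under 0.05. Over all genes tested the count was 504 at an unadjusted p under 0.05 and ran from 0 to 13 without 1 array, the 13 without wild-type replicate 2. The replicate number as a block changed no call at the adjusted threshold. At an unadjusted p under 0.05 the 1 gene was not stable, since limma gave Cxcl15 a p of 0.0745 and Ccl5 0.0457 with the replicate block, and Cxcl15 0.0512 with no filter on dim genes. The correlation of the replicate differences of both groups was −0.04 over all genes tested. It shows no pairing over genes at large, and it cannot exclude that replicates of the same number shared a litter or day. The median difference of the family was −0.14 with MMTV-Cre replicate 2 left out and 0.18 with MMTV-Cre replicate 1 left out, the lowest and highest of these fits. Each fit without an array leaves 1 array in a group, assumed to vary like the other group.

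Of the 25 genes with values in every array, Cxcl14 turned by median centring, to 0.0021. The sign of 16 turned without some array, and the lowest and highest differences were −0.34 and 0.27 for Ackr1, −0.35 and 0.15 for Ccl2, −0.53 and 0.0905 for Cx3cl1, −0.19 and 0.15 for Cxcl14, −0.76 and 0.35 for Cxcl3, −0.60 and 0.10 for Cxcl5, −0.45 and 0.046 for Cxcr4, −0.35 and 0.60 for Ccl11, −0.38 and 0.73 for Ccl3, −0.017 and 0.39 for Ccl6, −0.19 and 0.25 for Ccl7, −0.0051 and 0.32 for Cxcl1, −0.10 and 0.41 for Cxcl10, −0.0051 and 0.22 for Cxcl2, −0.33 and 0.41 for Cxcl9, and −1.37 and 0.29 for Xcl1. The cause was not tested. Signal near the limit restricts the dim genes.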

Other observations

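Lymphoid homing ligands of the Ccl21 family are measured by 9 probe sets that each carry several Ccl21 symbols, so no single gene can be named and they are outside the 52. The median of these probe sets was 7.28 in wild-type replicate 1, with a range of 6.50 to 7.36. It was 4.79 and 4.81 in MMTV-Cre replicates 1 and 2 and 4.54 in wild-type replicate 2. All 9 were highest in wild-type replicate 1, and they hold only 5 distinct sets of values. The 11 probe sets shared by Ccl27 genes had medians of 3.16 and 3.39 in MMTV-Cre and 3.62 and 3.23 in wild-type, and no array was the highest in all of them.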
